A study of Mus musculus with 28 samples.

Results

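The 9 genes Vil1, Espn, Eps8, Ezr, Myo1a, Cdhr2, Cdhr5, Ush1c and Myo7b encode structural proteins of the microvillus, and were picked by symbol for their known function. All 9 were listed in both count tables, out of 31179 symbols for duodenum and 30227 for kidney. RNA came from duodenum and kidney cortex of 8-week-old female mice of 3 genotypes, with 14 libraries per tissue. Per tissue, 4 libraries were from Vdr AF2 mice, whose vitamin D receptor is labelled as lacking activation function 2 (AF2), 4 were from Vdr-/- mice without a working receptor (KO, named Demay in the headers), and 6 were from wild-type mice (WT). Every mouse, WT included, was kept on a rescue diet with much calcium, phosphate and lactose, so no group shows the genotypes on ordinary chow. The study set the loss of the receptor against a receptor without coactivator signalling. The labels do not say whether the 2 tissues came from the same mice.

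Microvilli are the finger-like folds that pack the apical face of absorptive cells into a brush border, and both the enterocyte of the small intestine and the proximal tubule cell of the kidney carry one. Each microvillus holds a bundle of actin filaments, in which villin (Vil1) and espin (Espn) cross-link filaments and Eps8 caps and bundles them at the tip. Ezrin (Ezr) and the membrane-bound motor myosin-1a (Myo1a) tie the bundle to the plasma membrane. Neighbouring microvilli are joined at their tips by 2 cadherins, protocadherin-24 (Cdhr2) and mucin-like protocadherin (Cdhr5), which bind inside the cell to the scaffold harmonin (Ush1c) and the motor myosin-7b (Myo7b). The vitamin D receptor (Vdr) is a nuclear receptor known in these epithelia for control of calcium and phosphate transport, and AF2 is the surface through which it recruits coactivators once the hormone is bound.

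Promoters are shown for Vil1, Cdhr2 and Cdhr5, the 3 members whose duodenal levels followed one another most closely over the libraries, a choice made after those levels were seen. They are RefSeq sequences on GRCm38.p6, read on the gene's strand from 250 bases before to 50 bases after the annotated start. The Vil1 window is chr1:74409134-74409433 on the plus strand, the Cdhr2 window chr13:54701213-54701512 on the plus strand and the Cdhr5 window chr7:141276737-141277036 on the minus strand. Capitals mark CAAAGT, a core of the motif of the intestinal factor HNF4, and TTTATG, a motif of the CDX factors, on either strand.
Vil1: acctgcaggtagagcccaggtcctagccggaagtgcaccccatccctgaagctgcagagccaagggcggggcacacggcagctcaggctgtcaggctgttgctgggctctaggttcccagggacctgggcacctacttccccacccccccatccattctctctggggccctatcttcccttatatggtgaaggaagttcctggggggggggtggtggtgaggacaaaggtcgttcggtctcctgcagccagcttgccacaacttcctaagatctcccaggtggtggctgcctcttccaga
Cdhr2: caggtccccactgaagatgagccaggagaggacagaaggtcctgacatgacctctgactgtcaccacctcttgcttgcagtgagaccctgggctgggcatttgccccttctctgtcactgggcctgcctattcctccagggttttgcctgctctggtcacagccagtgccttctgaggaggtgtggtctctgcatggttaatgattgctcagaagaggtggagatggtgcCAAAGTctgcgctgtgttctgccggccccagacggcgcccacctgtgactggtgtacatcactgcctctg
Cdhr5: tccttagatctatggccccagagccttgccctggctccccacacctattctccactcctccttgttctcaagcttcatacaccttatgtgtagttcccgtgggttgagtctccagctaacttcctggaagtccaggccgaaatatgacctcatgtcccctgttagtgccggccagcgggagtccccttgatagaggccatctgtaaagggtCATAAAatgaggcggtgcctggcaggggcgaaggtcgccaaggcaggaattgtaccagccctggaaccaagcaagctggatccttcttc
The Cdhr2 window held CAAAGT on the gene's strand, 20 to 15 bases before the start. The Cdhr5 window held TTTATG on the opposite strand (printed as CATAAA), 39 to 34 bases before the start, and the Vil1 window held neither. The sequence table gave 9 windows for 7 of the 9 members, 3 of them for Espn. Over those 9 windows, CAAAGT was found in 1, TTTATG in 2 (Cdhr5 and an Espn window), and the longer CAAAGTCCA in 0. Among all 32851 mouse promoters of the same length, 14.4% held CAAAGT, 11.9% held TTTATG and 0.475% held CAAAGTCCA. A pair of hexamers of the kind the vitamin D receptor binds (AGGTCA or GGGTCA or AGTTCA or GGTTCA, in any pairing, 3 bases apart, either strand) was in 0 of the 9 windows and in 0.0396% of all promoters. Motifs were counted even where they overlapped one another. A match here is a match of letters only.

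Library totals ran from 3713352 to 25181916 deposited counts in duodenum, the highest in WT 2 and all others at most 6519522, and from 3725648 to 6492228 in kidney. Every count was even, so a read appears to have been counted 2 times, and reads below are counts divided by 2. Levels are given as CPM, the deposited count relative to the library's total, scaled within a tissue by the trimmed mean of M-values. Mean Vdr was 396 ± 29.6 CPM in AF2, 110.4 ± 9.67 in KO and 485 ± 149 in WT duodenum, and 80.6 ± 11.5, 17.0 ± 6.42 and 197 ± 15.6 CPM in the kidneys of AF2, KO and WT mice (SD, n = 4, 4 and 6). By edgeR, KO was called lower than WT in both tissues. AF2 was called lower than WT in kidney (log2 fold change -1.29 ± 0.17 SE, adjusted p 6.16e-05). In duodenum AF2 was not called (-0.29 ± 0.18, adjusted p 0.566). The AF2 effect on Vdr was not called as different between the tissues (adjusted p 0.134). The libraries read 3' ends, which may lie outside the altered part of the gene, so a remaining signal does not say whether a receptor is made. Defining markers of each labelled tissue were present. The summed level of 14 enterocyte markers was 21321 to 45690 CPM over all duodenal libraries, and that of 11 proximal tubule markers was 9526 to 11984 CPM over all kidney libraries. The duodenal library WT 4 had the lowest enterocyte sum of all. Library codes fall into 3 runs of consecutive numbers per tissue, with WT 1 and WT 2 in the first, KO with WT 3 and WT 4 in the next, and AF2 with WT 5 and WT 6 in the last. What a run stands for is not stated. A fit with code runs as a block compares KO only with WT 3 and WT 4, and AF2 only with WT 5 and WT 6.

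All 9 members were higher in WT duodenum than in WT kidney cortex, and each passed the test. The question here is how the 2 brush borders differ in their parts, in wild-type mice. Myo1a stood furthest apart, followed by Cdhr2 and Vil1. Of all 14944 genes tested in this comparison, 35.7% were called higher in duodenum. The median log2 difference of the members was 2.46, against 0.01 over all genes tested. Levels in the 3 paragraphs on this comparison are CPM with both tissues scaled together, and adjusted p-values are edgeR's with Benjamini-Hochberg adjustment over all genes tested.

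Among the genes of the actin core, Vil1 averaged 639.7 ± 159 CPM in WT duodenum and 71.2 ± 5.29 CPM in WT kidney (SD, n = 6 each; log2 difference 3.17 ± 0.14 SE, adjusted p 4.53e-22). Espn averaged 289 ± 31.2 and 42.2 ± 9.67 CPM (2.77 ± 0.13, adjusted p 2.19e-20). Eps8, which caps actin at the tip, differed least of the 9, at 183 ± 47.0 CPM in WT duodenum and 119 ± 7.92 CPM in WT kidney (0.62 ± 0.13, adjusted p 7.63e-05). Its lowest duodenal library, at 122 CPM, lay within the kidney range of 111 to 133 CPM, while the ranges of Vil1 and Espn lay far apart.

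Of the 2 membrane links, ezrin was measured well in both tissues and Myo1a only in duodenum. Ezr averaged 920.4 ± 198 CPM in WT duodenum and 388 ± 23.2 CPM in WT kidney (log2 difference 1.25 ± 0.13 SE, adjusted p 9.87e-11). Myo1a had 28510 reads over the 6 WT duodenal libraries and 1 read over the 6 WT kidney libraries, a ratio of rates of 16623 with an exact 95% interval of 2983 to 656601. In AF2 mice it had 12513 duodenal reads and 1 kidney read, and in KO mice 7685 and 0 reads. For KO, with the kidney put at a floor of 3 reads over the group, the ratio of rates is 3168. The lower limit of the exact 95% interval at 0 kidney reads is 2576. These intervals and floors cover counting error only. Its kidney level was thus at or below 1 read in every library, and no genotype comparison of Myo1a was made there.

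The 4 genes of the tip-link complex did not share one tissue difference. Cdhr2 averaged 316 ± 111 CPM in WT duodenum and 22.7 ± 4.60 CPM in WT kidney (log2 difference 3.80 ± 0.26 SE, adjusted p 1.12e-12), and Cdhr5 averaged 1133 ± 354 and 226 ± 15.3 CPM (2.32 ± 0.16, adjusted p 5.84e-15). The motor Myo7b averaged 285 ± 46.3 CPM in WT duodenum and 51.9 ± 7.24 CPM in WT kidney (2.46 ± 0.15, adjusted p 5.65e-17). The scaffold Ush1c, at 215 ± 29.5 and 98.2 ± 14.6 CPM, showed the smallest difference of the 4 (1.13 ± 0.11, adjusted p 1.17e-11). In whole tissue, fewer cells of a type and less RNA per cell cannot be told apart, so these values do not separate the 2 for any gene here or below.

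**Figure D1:**
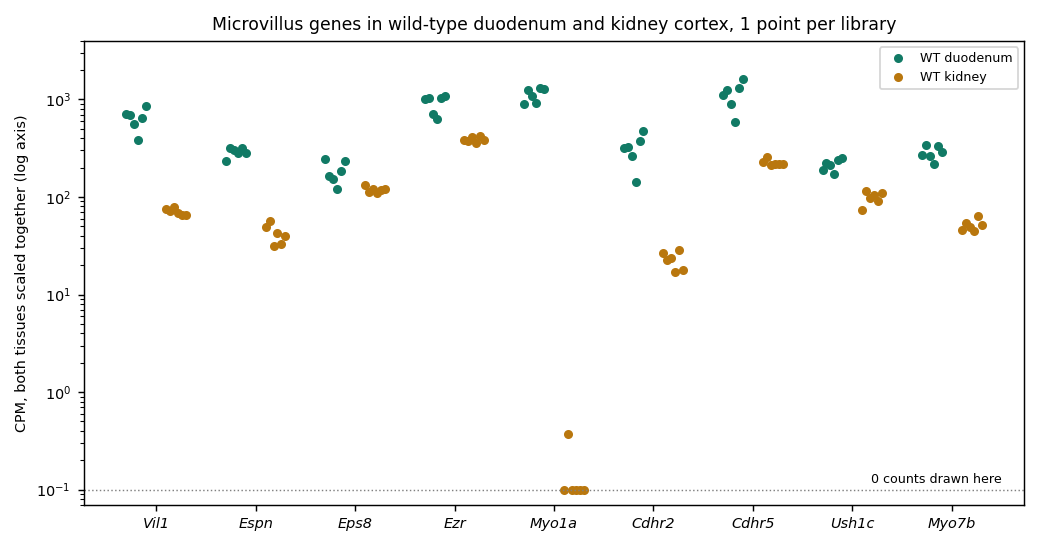
CPM (log axis, both tissues scaled together) of the 9 members in the 6 WT duodenal libraries (left of each pair) and the 6 WT kidney libraries (right), 1 point per library, with libraries at 0 counts drawn on the dotted line. Vil1, Espn, Cdhr2, Cdhr5 and Myo7b lie far apart between tissues, the ranges of Eps8 overlap through 1 duodenal library, and Myo1a has 1 read in all in kidney.

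In duodenum no member passed the test in any of the 3 genotype comparisons. Against WT, 8 of the 9 were lower in KO and 6 of the 9 were lower in AF2 by their point estimates, none past the threshold. Of the 13302 genes tested, edgeR called 0.0226% between KO and WT (3 genes), 0.0677% between AF2 and WT (9 genes) and 0.015% between AF2 and KO (2 genes), so few genes of any kind were called. The median log2 fold change of the members was -0.34 for KO and -0.19 for AF2, beside -0.0036 and 0.0002 over all genes. At an unadjusted p under 0.05 stood 5 members for KO against WT (11.4% of all genes), 3 for AF2 against WT (11.8%) and 2 for AF2 against KO (9.98%). Without a filter on low counts edgeR called 0.827% of genes between KO and WT, 0.923% between AF2 and WT and 0.408% between AF2 and KO. DESeq2 called 1.17% for AF2 against WT and 0.571% for AF2 against KO, code runs as a block 0.985% for AF2 against WT, and a fit of only AF2 and KO 0.397%. Leaving out KO 4 gave 0.0663% for AF2 against WT. Passes under these settings are given beside each member. KO and AF2 share the same WT libraries, so their values are given side by side and not as support for each other.

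Espn was the member nearest to a call in AF2. It measured 466, 365, 438 and 472 CPM in AF2 1 to 4 and 343, 289, 368 and 226 CPM in KO 1 to 4, with a lowest value of 237, a median of 299 and a highest of 316 CPM in WT. Every AF2 library lay above every WT library, while KO and WT overlapped. Espn was the only member whose AF2 and WT values did not overlap, as was so for 2.72% of all genes. The log2 fold change was 0.58 ± 0.13 (SE) for AF2 against WT (adjusted p 0.0659), 0.07 ± 0.13 for KO against WT (adjusted p 0.866) and 0.50 ± 0.14 for AF2 against KO (adjusted p 0.180). For AF2 against WT its adjusted p was under 0.05 without WT 4 (0.0252), without KO 4 (0.0488), in DESeq2 (0.0076) and with no filter on low counts (0.00264), and for AF2 against KO with no filter (0.0479). With code runs as a block AF2 against WT was 0.54 (adjusted p 0.108).

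Eps8 and Vil1, the other core genes, had point estimates below 0 in both mutants, except with code runs as a block for Vil1 in KO. Eps8 measured 111, 154, 97.4 and 112 CPM in AF2 and 119.7, 160.4, 114 and 144 CPM in KO, with 126, 174 and 247 CPM as the lowest, median and highest of WT. AF2 2, KO 2 and KO 4 lay above the lowest WT library, WT 4, and the other mutant libraries lay below all of WT. Its log2 fold change was -0.64 ± 0.17 for AF2 (adjusted p 0.144) and -0.46 ± 0.17 for KO (adjusted p 0.324), both against WT. For AF2 it passed without WT 4 (-0.71, adjusted p 0.0261), in DESeq2 (0.0342), with no filter (0.000584) and with code runs as a block (-0.82, adjusted p 0.044). For KO it passed with no filter (-0.48, adjusted p 0.0308), whereas with code runs as a block it was -0.087 (adjusted p 0.987). Vil1 measured 484, 581, 461 and 484 CPM in AF2, 404, 472, 536 and 618 CPM in KO, and 393, 654 and 857 CPM as the lowest, median and highest of WT. Both mutants lay in the lower part of a wide WT range (log2 fold change -0.36 ± 0.16 for AF2, adjusted p 0.387, and -0.34 ± 0.16 for KO, adjusted p 0.413). With code runs as a block they were -0.58 for AF2 (adjusted p 0.0863) and 0.052 for KO (adjusted p 0.989). The antisense-strand gene Usp37 reaches the last 1000 bases of Vil1 and Sytl3 those of Ezr, and whether counting used strand is not given, so reads of these pairs may be mixed.

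Neither membrane link was called between the mutants. Ezr measured 939, 960.3, 723 and 628 CPM in AF2 and 636, 778, 649 and 523 CPM in KO, with 645, 1019 and 1094 CPM as the lowest, median and highest of WT. The KO libraries sat at the low end and overlapped WT through WT 3 and WT 4. Its log2 fold change was -0.52 ± 0.16 for KO (adjusted p 0.205) and -0.19 ± 0.15 for AF2 (adjusted p 0.686), both against WT. Without WT 4 the KO difference passed (-0.60, adjusted p 0.0267), as it did with no filter (-0.54, adjusted p 0.00317), whereas with code runs as a block it was -0.10 (adjusted p 0.981).

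Myo1a was the only member whose AF2 and KO libraries did not overlap, as was so for 6.56% of all genes in that comparison. It measured 1528, 1298, 1259 and 1297 CPM in AF2, 1010.0, 917, 960.5 and 738 CPM in KO, and 908, 1168 and 1333 CPM as the lowest, median and highest of WT. WT spanned the space between the mutants and overlapped both. AF2 exceeded KO by 0.57 ± 0.14 (log2, adjusted p 0.124), with 0.25 ± 0.12 for AF2 against WT (adjusted p 0.431) and -0.32 ± 0.12 for KO against WT (adjusted p 0.324). The AF2 against KO difference passed in DESeq2 (adjusted p 0.0136), with only those 2 genotypes fitted (0.0371) and with no filter (0.006). With code runs as a block it was 0.24 (adjusted p 0.752), in a fit where AF2 and KO meet only through WT.

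In the tip-link complex the cadherins varied most between libraries. Cdhr2 measured 258, 302, 147 and 217 CPM in AF2 and 148, 235, 220.5 and 359.6 CPM in KO, with 149, 316 and 478 CPM as the lowest, median and highest of WT. Cdhr5 measured 1059, 1179, 761 and 1004 CPM in AF2 and 663, 961, 838 and 942 CPM in KO, with 613, 1169.7 and 1618 CPM in WT. The WT range of both ran from WT 4 at the bottom to WT 6 at the top and held every mutant library, except that AF2 3 and KO 1 were slightly below it for Cdhr2. The log2 fold changes against WT were -0.46 ± 0.32 in AF2 and -0.40 ± 0.32 in KO for Cdhr2 (adjusted p 0.631 and 0.664), and -0.19 ± 0.21 and -0.42 ± 0.21 for Cdhr5 (adjusted p 0.791 and 0.463). The coefficient of variation over the WT libraries was 34.2% for Cdhr2 and 30.1% for Cdhr5, against 12.8% for Ush1c and 14.4% for Myo7b.

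The cytoplasmic partners of the cadherins were steadier. Ush1c measured 246, 235, 189 and 228 CPM in AF2, 188, 192, 190.3 and 204 CPM in KO, and 179.7, 220.4 and 251 CPM as the lowest, median and highest of WT. Myo7b measured 276, 309, 234 and 248 CPM in AF2, 232, 231, 216 and 244 CPM in KO, beside 224, 282 and 334 CPM in WT. The KO libraries of both genes were tightly grouped and lay at the low end of WT without leaving its range, except that KO 3 was below all WT for Myo7b. Against WT, Ush1c differed by 0.05 ± 0.11 in AF2 and -0.16 ± 0.11 in KO (adjusted p 0.918 and 0.594), and Myo7b by -0.10 ± 0.12 in AF2 and -0.31 ± 0.12 in KO (adjusted p 0.786 and 0.314). AF2 exceeded KO by 0.21 in both genes (adjusted p 0.604 for Ush1c and 0.633 for Myo7b).

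**Figure D2:**
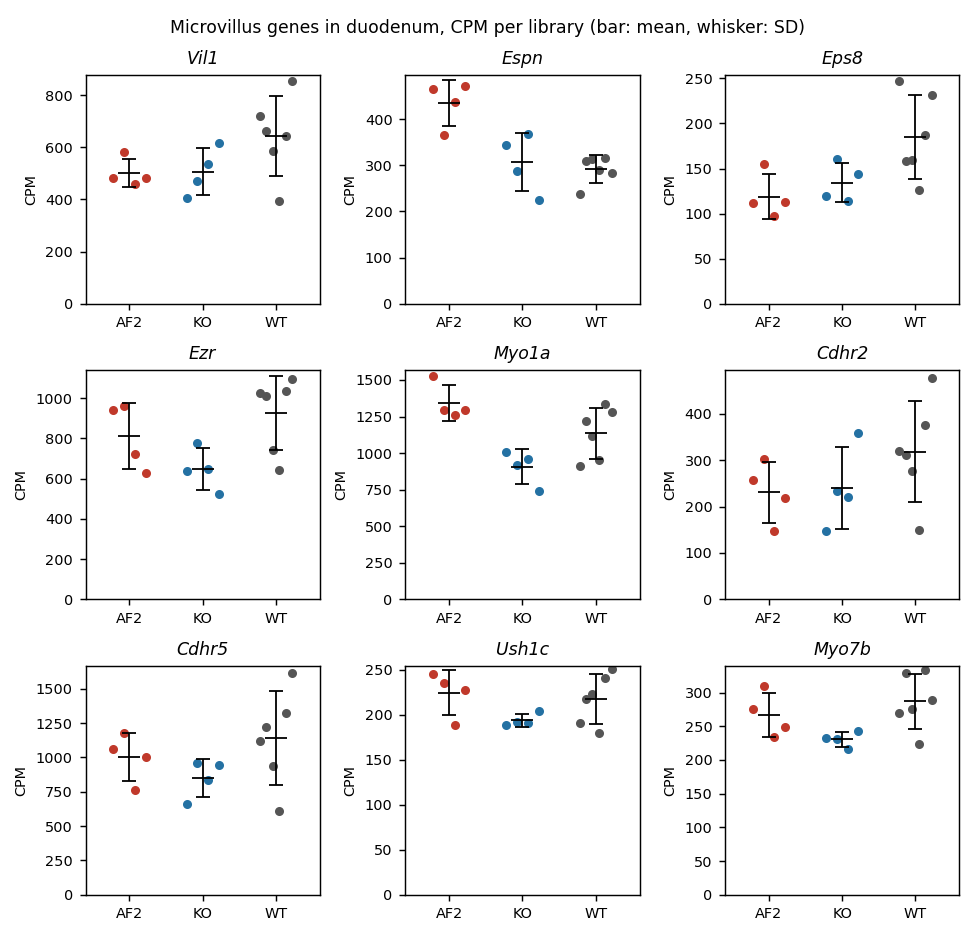
CPM per duodenal library (1 point each) of the 9 members in AF2, KO and WT, with the mean as a bar and the SD as a whisker (n = 4, 4 and 6). Espn in AF2 sits above all of WT, Myo1a in AF2 sits above all of KO, and the other genes overlap. WT has the largest SD of the groups for every gene except Espn.

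The members' values against WT moved with WT 4 and with the code runs. Without WT 4, the median log2 fold change of the members against WT was -0.45 in KO and -0.26 in AF2. Then 1 member passed for KO (Ezr), as did 1.74% of all genes, and 2 passed for AF2 (Eps8 and Espn), as did 1.65%. With code runs as a block the KO median was -0.06, with 5 of 9 lower, and Vil1, Cdhr2 and Cdhr5 turned to 0.052, 0.18 and 0.13. With the same block the AF2 median was -0.39, with 7 of 9 lower. Sums of cell type markers also varied between libraries, and were not tested under these settings. Enterocyte markers summed to 21473 to 30797 CPM in AF2, 23211 to 26132 in KO and 21321 to 45690 in WT. Their point estimates were lower for 13 of 14 in AF2 and for 14 of 14 in KO, with 0 called. Paneth cell markers summed to 2368 to 6658 CPM in AF2, 3661 to 7617 in KO and 2080 to 3850 in WT, and stem and cycling cell markers to 449 to 716, 577 to 843 and 410.1 to 685 CPM. Smooth muscle markers summed to 633 to 819.7 CPM in AF2, 481 to 613 in KO and 413 to 670.1 in WT. Sums for AF2, KO and WT were 669 to 1029, 694 to 842 and 560 to 722 CPM for fibroblasts. They were 413 to 455, 323 to 555 and 261 to 385 CPM for enteroendocrine cells. General epithelial markers gave 4927 to 5279, 4362 to 4914 and 4337 to 5647 CPM. Goblet, tuft and immune sums of both mutants overlapped WT. Pancreas markers ran from 7.87 to 9910 CPM within WT alone. No defining marker of these lists was at 0 in all libraries. Their part in the members' values was not tested.

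**Figure D3:**
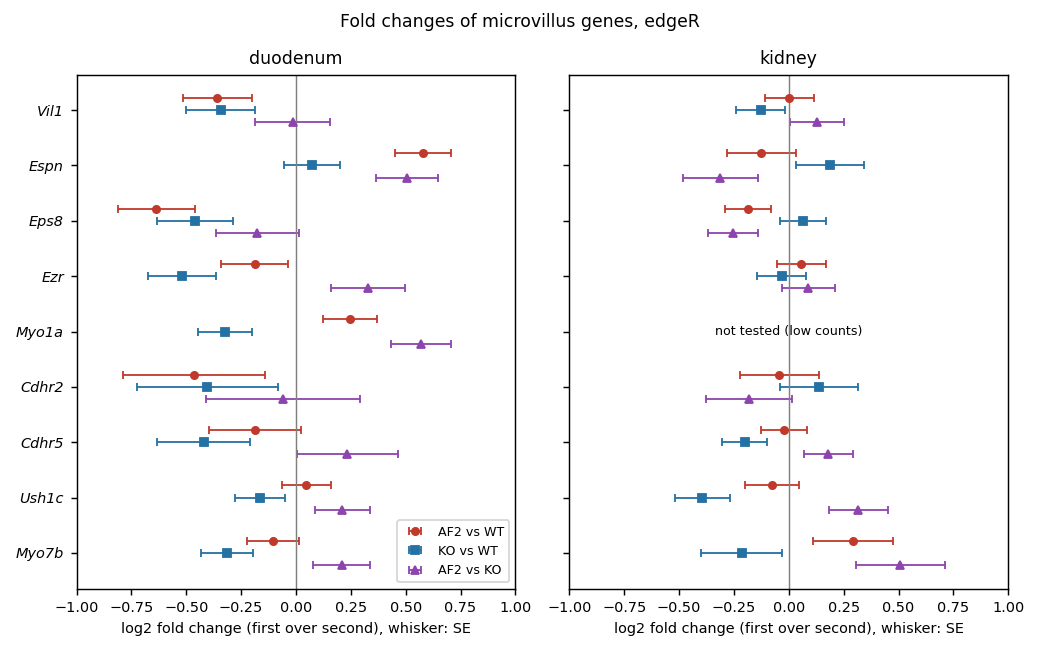
Log2 fold changes of the members (x axis, first group over second) with SE whiskers from edgeR in duodenum (left) and kidney (right), for AF2 against WT, KO against WT and AF2 against KO. In duodenum KO lies below 0 for 8 of 9 genes and AF2 lies at 0.58 for Espn and -0.64 for Eps8; in kidney most values lie within 0.3 of 0, and Myo1a was not tested.

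In kidney cortex none of the 8 tested members was called in any comparison, in tables where calls were more frequent. Library AF2 4 stood apart from the other 3 of its group, with a chi-square per degree of freedom over genes of 10.1 to 10.6 against each of them, where they had 1.96 to 2.92 among themselves, and no member was called without it. Library WT 1 had 801 CPM of summed immune cell markers, where WT 2 to WT 6 had 72.3 to 107 and the mutants at most 146. Its chi-square per degree of freedom was 5.57 to 9.30 against the other WT libraries, which had 2.36 to 5.87 among themselves. No member was called without WT 1 either. EdgeR called 0.844% of 13502 genes between KO and WT, 2.71% between AF2 and WT and 0.333% between AF2 and KO. At an unadjusted p under 0.05 stood 1, 0 and 3 of the 8 members, beside 10.5%, 14.5% and 11.5% of all genes. The medians over the members were -0.08 for KO against WT, -0.03 for AF2 against WT and 0.11 for AF2 against KO (log2), against -0.0039, 0.0047 and 0.0002 over all genes tested. Myo1a, left out by the filter on low counts, had 1 read in AF2 1, 0 reads in KO and 1 read in WT 2.

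Of the tip-link genes in kidney, Ush1c and Myo7b showed the largest differences. Ush1c measured 73.4, 87.1, 92.4 and 106 CPM in AF2, 80.0, 61.9, 73.5 and 72.7 CPM in KO, and 71.0, 98.2 and 108 CPM as the lowest, median and highest of WT. Its log2 difference was -0.39 ± 0.13 for KO against WT (adjusted p 0.160), where only WT 1 overlapped KO, and 0.32 ± 0.14 for AF2 against KO (adjusted p 0.369). Cdhr5 measured 182, 217, 196 and 263 CPM in AF2, 195, 180.4, 193 and 188 CPM in KO, beside 208, 213 and 242 CPM in WT. Every KO library lay below every WT library, the only such member, as was so in either direction for 3.44% of all genes, and the log2 difference was -0.20 ± 0.10 (adjusted p 0.505). Myo7b measured 63.3, 33.5, 60.6 and 86.4 CPM in AF2, 49.8, 32.0, 47.6 and 42.6 CPM in KO, beside 43.8, 49.0 and 62.3 CPM in WT. AF2 was spread wider than the other groups for this gene, and the AF2 against KO difference of 0.51 ± 0.20 was not called (adjusted p 0.327). It was 0.28 without AF2 4 and 0.72 without AF2 2 (adjusted p 0.655 and 0.051). Cdhr2 was low throughout, at 21.3 ± 1.45 CPM in AF2, 24.2 ± 5.64 in KO and 21.9 ± 4.40 in WT (SD, n = 4, 4 and 6).

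None of the core genes nor ezrin was called in kidney. Vil1 averaged 68.7 ± 4.75 CPM in AF2, 62.8 ± 6.05 in KO and 68.6 ± 5.19 in WT (SD, n = 4, 4 and 6). Espn averaged 37.2 ± 6.17, 46.2 ± 4.51 and 40.6 ± 8.97 CPM in AF2, KO and WT. Its AF2 value against WT was -0.12 ± 0.16 in kidney (adjusted p 0.773), where duodenum gave 0.58. Eps8 averaged 101 ± 6.00 CPM in AF2, 120.2 ± 15.5 in KO and 115 ± 7.75 in WT, with log2 differences from WT of -0.19 ± 0.11 and 0.07 ± 0.10 (adjusted p 0.434 and 0.879). Between AF2 and KO the log2 difference was -0.31 ± 0.17 for Espn (adjusted p 0.493) and -0.25 ± 0.12 for Eps8 (adjusted p 0.396). Ezr measured 325, 421, 314 and 493 CPM in AF2, 361, 337, 389.9 and 372 CPM in KO, and 345, 370.2 and 404 CPM as the lowest, median and highest of WT. The AF2 libraries of Ezr fell on both sides of WT, and without AF2 4 the difference from WT was -0.085 (adjusted p 0.826) in place of 0.057. Summed proximal tubule markers were 9526 to 10941 CPM in AF2, 10008 to 10980 in KO and 9648 to 11984 in WT. Podocytes also use ezrin at their apical face, and their markers summed to 360.1 to 462 CPM in AF2, 288 to 315 in KO and 232 to 301 in WT. Thick ascending limb markers summed to 3454 to 4009, 3013 to 3793 and 2291 to 3029 CPM in AF2, KO and WT. Intercalated cell markers summed to 284 to 347, 254 to 420 and 201 to 264 CPM. Distal convoluted tubule, collecting duct, endothelium and immune sums of AF2 overlapped WT. The part of these cells was not tested.

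No member's genotype effect was shown to differ between the tissues. In 1 fit of all 28 libraries, 0 of 9 members were called for the AF2 effect (0.381% of 14944 genes called) and 0 of 9 for the KO effect (0.0535% called). At an unadjusted p under 0.05 stood 2 members in each (10.7% and 7.99% of all genes). Espn came nearest, with an AF2 effect 0.69 ± 0.20 higher in duodenum than in kidney (log2, adjusted p 0.138). For the KO effect, Eps8 and Ezr were lower in duodenum by point estimates of -0.56 ± 0.21 and -0.52 ± 0.20 (adjusted p 0.431 and 0.465). The estimate for Myo1a rests on 2 kidney reads and is not read here.

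Over the 14 duodenal libraries most members followed one another, and over the kidney libraries they did not. Of the 36 pairs of members in duodenum, 24 had a Pearson r over 0.5 on log2 CPM (prior count 2), with a median of 0.60, a lowest of -0.71 and a highest of 0.92. The highest were Vil1 with Cdhr2 (0.92), Cdhr2 with Cdhr5 (0.91) and Vil1 with Cdhr5 (0.87), the 3 genes whose promoters are printed above. Espn stood apart. It ran against Eps8 (-0.71), Vil1 (-0.47) and Cdhr2 (-0.45), and with Myo1a (0.72). In kidney 3 of 28 pairs were over 0.5, the median was 0.07, and the highest was Cdhr5 with Ush1c (0.71). These r are descriptions over n = 14 libraries that share the scaling, the genotypes and the code runs, and the kidney counts are lower, which widens their counting error.

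Averaged over the 9 genes, each centred on its own mean, the duodenal profile was 0.12, 0.19, -0.21 and -0.04 in AF2 1 to 4, and -0.31, -0.12, -0.18 and -0.15 in KO 1 to 4 (log2). It was 0.13, 0.19, 0.03, -0.37, 0.30 and 0.42 in WT 1 to 6. The lowest and the highest library were thus both WT. All 4 KO libraries lay below 0, and WT 4 below every one of them. WT 4 and WT 6 were also the lowest and highest in the enterocyte marker sum, at 21321 and 45690 CPM. The genes most like this profile among 6826 candidates, members left out, were Atp6v0e (r 0.97), a subunit of the proton pump V-ATPase, Tm6sf2 (0.96), which acts in lipoprotein secretion, and Mpp1 (0.94), a membrane scaffold. Marc2 (0.93), a mitochondrial reductase, and Slc6a19 (0.93), the brush border transporter of neutral amino acids, came next. In kidney the profile ran only from -0.11 to 0.21, and among 6888 candidates the genes most like it were Elovl1 (0.89), Sod3 (0.89), Rnf220 (0.89), Dctn5 (0.87) and Ndufs8 (0.87), over n = 14 libraries in each tissue.

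**Figure D4:**
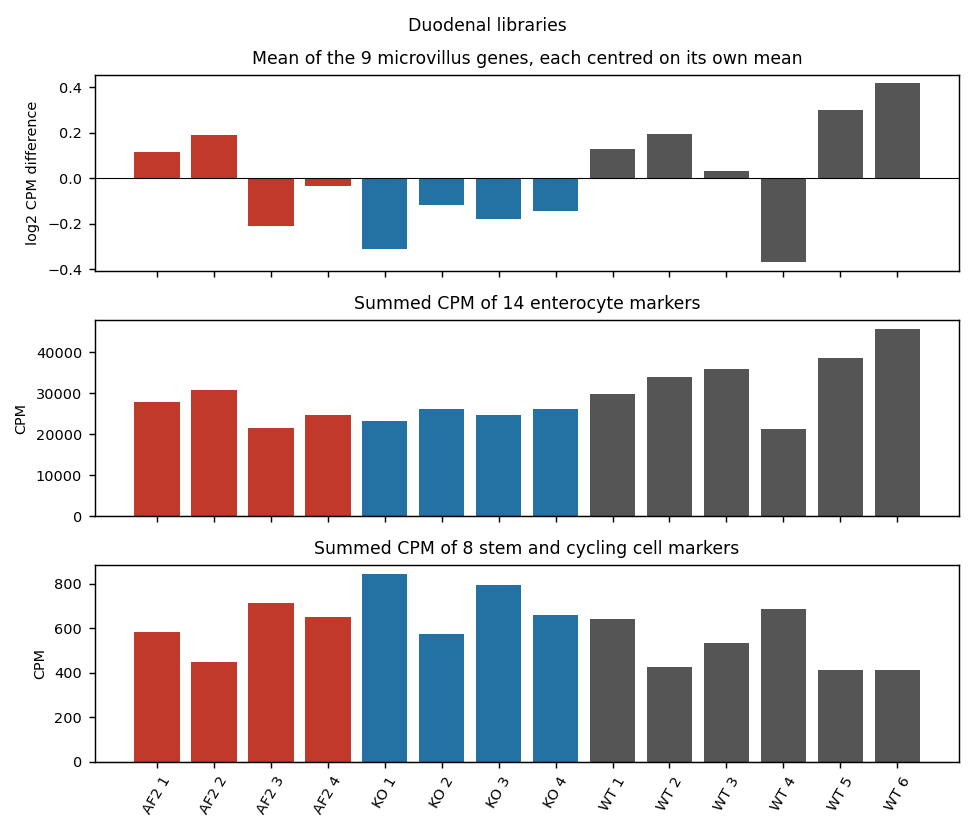
Mean of the 9 members (top, log2 CPM difference from each gene's mean) and summed CPM of 14 enterocyte markers (middle) and 8 stem and cycling cell markers (bottom) in each duodenal library, AF2, KO and WT from left to right. WT 4 is lowest and WT 6 highest in the upper 2 panels, and the 4 KO libraries lie below 0 in the top one.

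Beyond the members, 77 genes of the same structures were listed: partners of the tip links, actin core proteins, membrane linkers, motors, the terminal web, apical trafficking and brush border transcription factors. In duodenum 0 of 72 tested were called in any genotype comparison. Their median log2 fold change was -0.16 for KO against WT, with 55 of 72 lower, and -0.09 for AF2 against WT, with 50 of 72 lower. Of all 13302 genes tested, 6703 were lower in KO and 6647 in AF2. The smallest p for AF2 against WT were those of the motor Myo1d (-0.59 ± 0.13, adjusted p 0.0659) and Clic5 (-0.49 ± 0.15, adjusted p 0.175), a partner of ezrin. For KO against WT they were those of Slc9a3r1 (-0.45 ± 0.13, adjusted p 0.189), the scaffold NHERF1 that binds ezrin, and again Clic5 (-0.50 ± 0.15, adjusted p 0.196). For AF2 against KO they were those of the actin-severing protein Gsn (0.65 ± 0.17, adjusted p 0.159) and the actin gene Actb (0.40 ± 0.12, adjusted p 0.210). Leaving out WT 4 let 5 of these genes pass for AF2 against WT (Pls1, Myo1d, Clic5, Maf and Myo5b) and 4 for KO against WT (Pls1, Clic5, Slc9a3r1 and Stx3), all lower in the mutant. That setting called 1.65% of all genes for AF2 and 1.74% for KO, against 0.0677% and 0.0226% with all libraries.

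In kidney, 3 of 64 listed genes were called for AF2 against WT, 1 for KO against WT and 0 for AF2 against KO, where 2.71%, 0.844% and 0.333% of all genes were called. Counts this near to those shares are no result about the list, and the called genes are given each for itself. Myo1d rose in AF2 kidney, to 68.8, 75.0, 75.3 and 94.8 CPM, against 37.4, 52.7 and 56.4 CPM as the lowest, median and highest of WT (log2 fold change 0.68 ± 0.13, adjusted p 0.00183), while KO measured 54.9, 46.7, 55.3 and 50.1 CPM. Every AF2 library of Myo1d lay above every KO and WT library. Baiap2l2, a membrane-binding protein of the I-BAR family in epithelial cells, also rose in AF2 kidney, at 69.8, 79.2, 65.2 and 57.4 CPM, against 41.4, 46.1 and 48.6 CPM in WT (0.59 ± 0.12, adjusted p 0.0033). Slc9a3r1 fell in AF2 kidney, at 55.8, 61.9, 60.6 and 61.7 CPM, against 64.2, 83.1 and 139 CPM in WT (-0.62 ± 0.15, adjusted p 0.023). Pdzd3, a PDZ scaffold of the brush border, fell in KO kidney, at 59.0, 42.2, 48.8 and 46.7 CPM, against 61.0, 71.2 and 93.8 CPM in WT (-0.57 ± 0.14, adjusted p 0.0367). The groups of these 4 genes did not overlap in those comparisons, as was so for 4.73% of all genes for AF2 and 3.44% for KO.

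These kidney calls depended on single libraries and on the code runs to unequal degrees. Myo1d and Baiap2l2 passed without any 1 library, with adjusted p of at most 0.00906 and 0.0306. Slc9a3r1 was not called without WT 2 or without any 1 of the AF2 libraries (adjusted p up to 0.0816), and Pdzd3 was not called without WT 3, WT 4, WT 5, WT 6, KO 2, KO 3 or KO 4 (adjusted p up to 0.146). Without WT 1, Slc9a3r1 was at -0.47 and only just called (adjusted p 0.0484). With limma-voom it was at -0.58 and not called (adjusted p 0.0523). With code runs as a block, Myo1d was at 0.49 (adjusted p 0.170), Baiap2l2 at 0.61 (0.0825), Slc9a3r1 at -0.28 (0.537) and Pdzd3 at -0.54 (0.342), none of them called. Between AF2 and KO, the smallest kidney p were those of Myo1d (0.60 ± 0.14, adjusted p 0.0553) and Slc9a3r2 (0.48 ± 0.14, adjusted p 0.151), a second NHERF scaffold.

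Myo1d also differed between tissues in its AF2 effect. In duodenum it measured 159, 185, 187 and 163 CPM in AF2 and 204, 255 and 318 CPM as the lowest, median and highest of WT, so AF2 lay below WT there and above it in kidney. The AF2 effect in duodenum minus that in kidney was -1.29 ± 0.18 (log2, adjusted p 0.000146). Myo5b, a motor of apical recycling, gave -0.83 ± 0.20 (adjusted p 0.0489), with 112 ± 15.8 CPM in AF2 and 155 ± 37.3 CPM in WT duodenum and 67.4 ± 4.01 and 53.0 ± 2.64 CPM in AF2 and WT kidney. Those were 2 of 71 listed genes tested for this difference. For the KO effect 0 of 71 were called, and the smallest p were those of the motor Myo7a (0.86 ± 0.27, adjusted p 0.325) and of Pacsin2 (-0.73 ± 0.26, adjusted p 0.398), which bends membrane. Between WT duodenum and WT kidney, 45 of the 71 were called higher in duodenum and 16 lower, where 35.7% and 34.3% of all genes were called. Higher were the tip-link scaffold Anks4b (log2 difference 1.80) and the bundler Pls1 (3.35), and lower were the ezrin relatives Msn (-1.96) and Rdx (-3.60) and the scaffold Pdzk1 (-3.55). Calml4, a light chain of Myo7b, was not called between the tissues (-0.17, adjusted p 0.205).

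**Figure D5:**
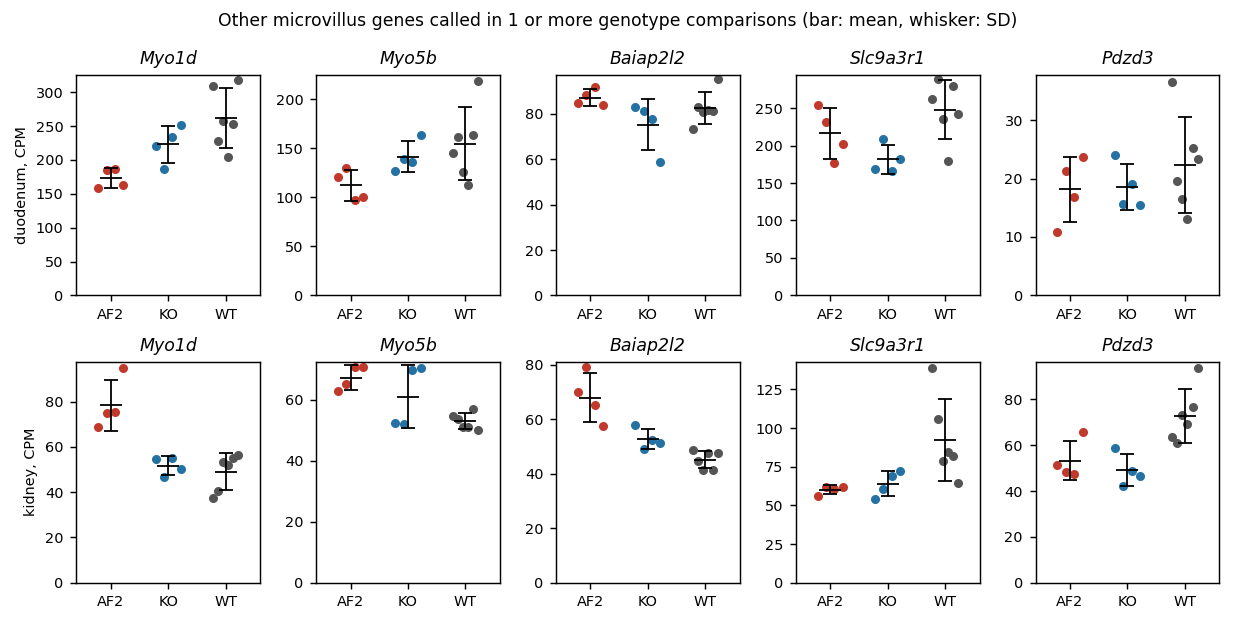
CPM per library (1 point each) in duodenum (top) and kidney (bottom) of the 5 listed genes called in a genotype comparison or for a difference between tissues, in AF2, KO and WT, with mean bars and SD whiskers (n = 4, 4 and 6). Myo1d in AF2 sits below WT in duodenum and above it in kidney, and Pdzd3 in KO and Slc9a3r1 in AF2 sit below WT in kidney.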

How the data were processed

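RNA libraries of 14 duodenum and 14 kidney cortex samples were made with a QuantSeq kit from TRIzol-extracted total RNA, per the labels' protocols. Per the file headers, the authors deposited 1 table of raw counts for each tissue, with gene symbols as rows and no normalization. The submitters' processing notes name mm10 and limma 3.34.9. For the aligner, the counter and strand use, nothing is given in the sources used here. Replicate libraries differed by more than sampling noise (smallest chi-square per degree of freedom 1.96), and nothing in the labels says how the samples of a group were taken apart from their titles, so p-values measure the spread between these samples.

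Genes were filtered with filterByExpr and libraries scaled by TMM. Contrasts were tested in edgeR 4.0.16 (R 4.3.3) by two-sided quasi-likelihood F tests (robust) on all 14 libraries of a tissue, or on all 28 for effects that differ between tissues, with Benjamini-Hochberg adjustment over all genes tested. A gene was called at an adjusted p under 0.05. SE was taken as the size of the log2 fold change divided by the root of its F. Scripts were tested on simulated data. Members, lists and the rule for naming genes were chosen with earlier results of these data known. The rule names the 9 members, Vdr, listed genes that were called (otherwise the 2 with the smallest p), and the 5 genes per tissue most like the members' mean profile, among genes averaging 4 or more on the log2 CPM scale. Gene coordinates came from GENCODE vM21 on GRCm38, which matched 97.2% and 97.3% of symbols. Alternatives were relative log expression scaling, no filter, DESeq2 1.42.0, limma-voom (limma 3.58.1), halved counts, replicate numbers or library code runs as a block, only the genotypes compared, and each library left out. Code runs as a block and only the genotypes compared were fitted within a tissue, and not over all 28 libraries. The promoter table had no entry for 2 members.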

Additional observations from a re-analysis of the deposited data

Results flagged for a closer look

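Myo1a in AF2 duodenum had a library that stood apart, AF2 1 at 1528 CPM, with the next at 1298 CPM, a gap of 0.857 of the group's range. In kidney the same gene stood apart in AF2 1 at 0.502 CPM and in WT 2 at 0.354 CPM, which is 1 read in each against 0 in the other libraries of those groups. In all 53 groups were examined for such libraries, and chance marks about 1 in 20. That rate does not hold for the kidney flags, as 1 read against 0 elsewhere always gives a gap equal to the range.

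The AF2 effect of Myo1d differed between the tissues, at -1.29 ± 0.18 (log2, duodenum minus kidney, edgeR adjusted p 0.000146), with a range of -1.35 to -1.19 as each library was left out. Differences between tissues were not fitted with code runs as a block. Within a tissue, that block put Myo1d in AF2 against WT at -0.72 in duodenum (adjusted p 0.0232). In kidney it gave 0.49, not called (adjusted p 0.170). The AF2 effect of Myo5b also differed, at -0.83 ± 0.20 (adjusted p 0.0489). Without any 1 of 21 of the 28 libraries Myo5b was no longer called, with adjusted p up to 0.125. Some of those were KO libraries, which are not part of this contrast. The estimate ran from -0.92 to -0.70 as each library was left out. With all libraries its adjusted p lay just under the threshold, so the call is borderline.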

How the results depend on the processing

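Members called in WT duodenum against WT kidney stayed at 9 of 9 under every alternative run, and members called in kidney and for differences between tissues stayed at 0. In duodenum the counts moved. Without a filter on low counts, 2 members were called in each of the 3 comparisons. With DESeq2, 2 were called for AF2 against WT and 1 for AF2 against KO, with code runs as a block 1 for AF2 against WT, and with only the 2 genotypes fitted 1 for AF2 against KO. Leaving out each library gave 0 to 1 for KO against WT, 0 to 2 for AF2 against WT and 0 for AF2 against KO. All genes called then ran from 1 to 229, from 0 to 217 and from 1 to 4, and the highest counts came without WT 4.

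Listed genes called in duodenum numbered 3 for KO against WT, 4 for AF2 against WT and 2 for AF2 against KO without a filter, 2 and 1 for the last 2 comparisons with DESeq2, and 4 for AF2 against WT with code runs as a block. Over all genes the calls were 215, 240 and 106 without a filter, 156 and 76 with DESeq2, and 131 with the block. Leaving out each library gave 0 to 4, 0 to 5 and 0. In kidney, KO against WT had 3 without a filter, 2 with only the 2 genotypes and 0 with code runs as a block, where 1 was called before. Over all genes 252, 177 and 25 were called, against 114 before. AF2 against WT had 5 without a filter, 6 with DESeq2 and 1 with code runs as a block. Over all genes these settings called 590, 535 and 121, against 366 before. AF2 against KO had 2 without a filter, 2 with DESeq2 and 1 with halved counts. There the calls over all genes were 193, 152 and 67, against 45 before. Leaving out each library gave 0 to 1, 2 to 4 and 0 to 1, with 38 to 206, 294 to 365 and 22 to 78 over all genes. The listed counts moved with the calls over all genes and are no result about the list. For the AF2 effect between tissues, where 2 were called, 1 was called with relative log expression scaling and 1 with limma-voom, 3 with DESeq2 (Myo1d, Myo5b and Klf4, the last at -1.04, adjusted p 0.0459), and 1 to 2 with a library left out. The replicate block called Myo1d and Klf4 (-1.04, adjusted p 0.0327) and not Myo5b (-0.80, adjusted p 0.0768). Over all genes 57 were called for that effect, 54 with relative log expression scaling, 28 with limma-voom and 19 to 123 with a library left out. Causes were not tested.

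Signs of small, uncalled differences turned. With code runs as a block, KO against WT in duodenum gave 0.052 for Vil1, 0.18 for Cdhr2 and 0.13 for Cdhr5, AF2 against WT gave -0.13 for Ush1c, and AF2 against KO gave -0.29 for Ezr, -0.69 for Cdhr5, -0.076 for Ush1c and -0.11 for Myo7b. In kidney the same block gave 0.085 for Espn and 0.028 for Cdhr5 in AF2 against WT. Vil1 in AF2 kidney against WT was -0.0085 with relative log expression scaling, -0.0090 with DESeq2 and -0.012 with only the 2 genotypes. Leaving out each library, Espn in KO against WT duodenum ran from -0.028 to 0.19, and for AF2 against KO there Vil1 ran from -0.11 to 0.10 and Cdhr2 from -0.23 to 0.20. In kidney against WT, KO gave -0.029 to 0.21 for Cdhr2 and -0.016 to 0.12 for Eps8, and AF2 gave -0.12 to 0.030 for Cdhr2, -0.14 to 0.038 for Cdhr5, -0.054 to 0.024 for Vil1 and -0.085 to 0.14 for Ezr. Ezr in AF2 against KO kidney ran from -0.050 to 0.18. The tissue difference of Myo1a, which rests on 2 kidney reads, ran from -0.36 to 1.95 for KO and from -2.32 to 2.30 for AF2.

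Same-numbered libraries did not deviate together (r of -0.20 to 0.10 between genotypes in duodenum, -0.04 to 0.17 in kidney, -0.08 to 0.10 between tissues), so the numbers were not taken as pairs. With the replicate block, 0 listed genes were called for KO against WT in kidney (Pdzd3 at -0.45, adjusted p 0.230), Cdhr5 in AF2 against WT duodenum was 0.051, and Vil1 in AF2 against WT kidney was -0.051. Depth limits Cdhr2 and Espn in kidney, with 196 to 318 and 349 to 596 reads per genotype, and Myo1a most of all.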
